A study of Homo sapiens with 8 samples.

Results

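The genes described here encode subunits and assembly factors of mitochondrial respiratory complex I. They were taken by name, as every gene of the guide library whose symbol begins with NDUF, which gave 47 of 18913 genes. Of these, 7 encode core subunits, 30 accessory subunits and 7 NDUFAF assembly factors, while 3 carry the name but are not complex I subunits. The library was human GeCKOv2, a pool of single guide RNAs (sgRNAs) for Cas9 knockout, with 6 guides for 46 of these genes and 4 guides for the other. It was introduced into MB157R, a Cas9-expressing human line of triple-negative breast cancer with acquired resistance to γ-secretase inhibitors (GSI), a resistance that the cells of all groups carry. γ-Secretase releases the active intracellular part of Notch receptors. The screen asked which genes the resistant cells need when the enzyme is blocked.

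There were 3 groups, all from 1 transduced and puromycin-selected pool of cells. The GSI group was 3 cultures kept for 14 days with the γ-secretase inhibitor LY3039478 at 10 µM, the DMSO group was 3 cultures kept for 14 days with the solvent, and the T0 group was 2 aliquots of the pool at day 0. What was counted is the number of sequencing reads of each guide in genomic DNA. A guide that becomes rarer can mark knockout cells that were outgrown by the rest. Counts also differ between aliquots of the same pool, as the T0 libraries below show. Expression was not measured, and the breast cancer identity of the cells cannot be checked in such data. A single cell line was used, and guides lost before T0 leave no trace.

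Complex I (NADH:ubiquinone oxidoreductase) is the first enzyme of the respiratory chain. It passes electrons from NADH to ubiquinone and pumps protons across the inner mitochondrial membrane, which feeds ATP synthesis and regenerates NAD+ for the synthesis of aspartate and other building blocks. Its peripheral arm holds the flavin and iron-sulphur clusters and reaches into the matrix, its membrane arm holds the proton channels, and accessory subunits surround both. The core subunits of the membrane arm are encoded by mitochondrial DNA and have no NDUF gene, so the 7 core subunits here all belong to the peripheral arm. Assembly factors help to build the enzyme and are not part of the finished complex. Cultured cells can often replace part of its function by glycolysis and by supplied pyruvate.

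Total counts were 12.1 to 18.2 M reads per library with median counts of 66 to 112 per guide, and 1 guide against VPS33B took 38.8% of GSI replicate 1. The T0 libraries were the least alike, with a Spearman correlation over guides of 0.38 between them, against 0.67 to 0.73 among GSI libraries and 0.62 to 0.64 among DMSO libraries. DMSO replicate 1 and GSI replicate 1 resembled each other most, at 0.82. Of the 280 NDUF guides, 5 to 6 were at a count of 0 in the GSI libraries, 7 to 15 in the DMSO libraries, and 19 and 35 in the T0 libraries. Guides with a mean count of at least 10 were tested, which kept 271 NDUF guides and all 47 genes. At T0 the NDUF genes had a median normalized count of 119 per guide, against 117 over all genes tested.

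Guides against complex I genes were less abundant after 14 days in DMSO than at T0, when the genes are described together, but no single gene passed the test. Each gene has several guides, and their median log2 fold change stands for the gene. In DMSO against T0 it was negative for 40 of 47 NDUF genes, or 85.1%, against 49.7% of all genes tested. The median was −0.44, against 0.00 over all genes. A fold change under −1, a loss of more than 2-fold, was found for 10 NDUF genes, or 21.3%, against 4.86% of all genes. These medians and shares are descriptions, with no test of the group as a whole.

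Each gene was tested by robust rank aggregation (RRA), which asks whether its guides stand unusually near the low or the high end of a ranking of all guides, where guides were ranked by edgeR's quasi-likelihood test. Among all genes, 0.0323% were called lower in DMSO than at T0 at an adjusted p under 0.05 and 0% higher, and no NDUF gene was called on either side. At an unadjusted p under 0.05, 5 NDUF genes were lower, or 10.6%, against 6.19% of all genes, and 2 were higher, or 4.26%, against 5.28%. DESeq2 in place of edgeR also called 0 NDUF genes, as did edgeR on counts summed per gene. The libraries of both groups did not overlap, with DMSO below T0, for 20 NDUF genes, or 42.6%, against 17.1% of all genes. They did not overlap in the other direction for 3, or 6.38%, against 12.4%.

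**Figure D1:**
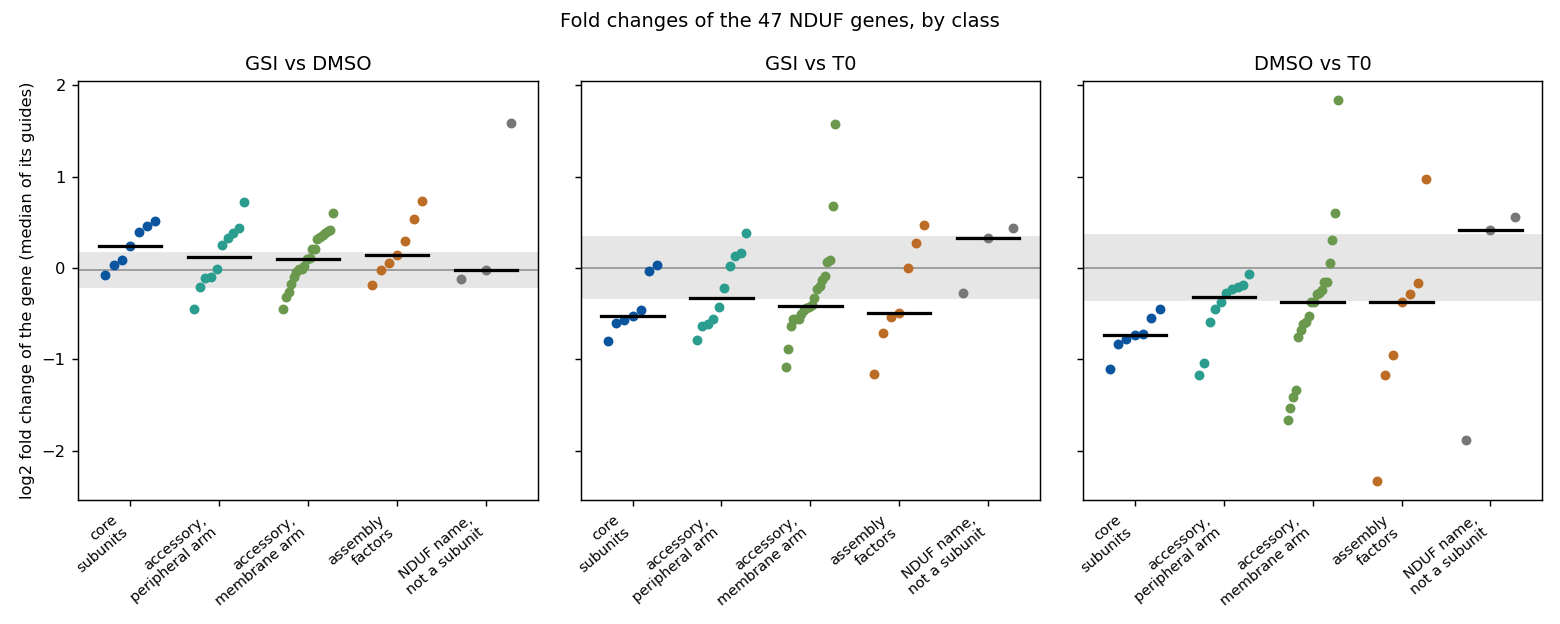
The y axis gives the log2 fold change of each of the 47 NDUF genes (points, the median of a gene's guides) by class of gene, for GSI against DMSO, GSI against T0 and DMSO against T0. Black bars are class medians, the grey line is the median and the grey band the middle 50% of all genes tested, and the acyl carrier NDUFAB1 is plotted with the peripheral arm. All 7 core subunits lie below 0 in DMSO against T0, and 6 of 7 lie above 0 in GSI against DMSO. Both comparisons use the same DMSO libraries, so these signs are not independent.

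The 7 core subunits lay on the same side of 0 in DMSO against T0. All had a negative fold change, from −0.44 to −1.11 with a median of −0.74, and 6 of 7 had one in GSI against T0, with a median of −0.52. In GSI against DMSO 6 of 7 were positive, with a median of 0.24. That comparison shares the DMSO libraries with DMSO against T0, so opposite signs in them are not independent. NDUFS1 in DMSO against T0 gave the only unadjusted p under 0.05 among the core subunits in the 3 comparisons.

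NDUFS1, NDUFV1 and NDUFV2 form the NADH-oxidising tip of the peripheral arm. NDUFS1, the largest core subunit and a carrier of several iron-sulphur clusters, had 127, 134 and 125 normalized counts per guide in GSI replicates 1 to 3, 101, 103 and 109.5 in DMSO replicates 1 to 3, and 126 and 247 in T0 replicates 1 and 2. All DMSO libraries were below all GSI and both T0 libraries, and T0 replicate 2 stood far above the rest. Its fold change in DMSO against T0 was −0.78 ± 1.82 (SD over 6 guides), with 4 of 6 guides negative (exact RRA p = 0.0207, adjusted p = 0.619). Without T0 replicate 2 it was −0.19, and without T0 replicate 1 it was −1.14. Against DMSO, GSI gave 0.39 ± 0.81 (SD over 6 guides; adjusted p = 0.967 on the high side).

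NDUFV2, an iron-sulphur subunit that receives electrons near the NADH site, had the lowest core fold change, −1.11 ± 0.70 in DMSO against T0 (SD over 5 guides; exact RRA p = 0.0622, adjusted p = 0.85). Its levels were 50.1, 79.5 and 87.3 normalized counts in GSI libraries, 33.3, 75.1 and 93.2 in DMSO libraries, and 60.4 and 203 in T0 libraries. The groups overlapped, and the T0 libraries were more than 3-fold apart. All 5 of its guides were negative in GSI against T0, with a fold change of −0.80. NDUFV1, which binds NADH and the flavin, had 92.0, 76.0 and 103 normalized counts with GSI, 111, 72.1 and 99.7 with DMSO, and 151 and 92.7 at T0. The fold change was −0.57 in GSI against T0 and −0.55 in DMSO against T0, and 0.03 in GSI against DMSO.

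NDUFS3, NDUFS7 and NDUFS8 belong to the part of the arm where ubiquinone is reduced. NDUFS8, which carries a pair of iron-sulphur clusters, had 105, 109 and 105 normalized counts in GSI libraries, 75.4, 92.7 and 61.5 in DMSO libraries, and 137 and 116 in T0 libraries. No 2 of these groups overlapped, with DMSO lowest, GSI between and T0 highest. Its fold change was −0.83 ± 3.21 in DMSO against T0 (SD over 6 guides; exact RRA p = 0.0614, adjusted p = 0.85), −0.03 in GSI against T0 and 0.45 ± 0.45 in GSI against DMSO (5 of 6 guides positive; exact RRA p = 0.281 on the high side, adjusted p = 0.988). Its widest outlier was a guide with 15, 27 and 23 counts in the GSI libraries, 1, 13 and 27 in the DMSO libraries and 0 in both T0 libraries.

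NDUFS3, an early building block of this part, had 105, 103 and 60.4 normalized counts with GSI, 108, 59.7 and 64.5 with DMSO, and 193 and 84.6 at T0. The gene had a fold change of −0.72 in DMSO against T0 and −0.52 in GSI against T0, with 5 of 6 guides negative in each. NDUFS7, which carries the last iron-sulphur cluster before ubiquinone, had 128, 99.2 and 127 normalized counts with GSI, 164, 97.9 and 103 with DMSO, and 186 and 78.3 at T0, and its fold change was −0.46 in GSI against T0 and −0.44 in DMSO against T0. For NDUFS3 and NDUFS7 every comparison had overlapping libraries.

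The T0 libraries were far apart for several core subunits. In 4 of 7 core subunits (57.1%) the T0 libraries were more than 2-fold apart, against 14.3% of all genes tested and 7 of 47 NDUF genes (14.9%). The direction was mixed, with NDUFS1 and NDUFV2 higher in T0 replicate 2 and NDUFS3 and NDUFS7 higher in T0 replicate 1. Among DMSO libraries the highest was more than 2-fold over the lowest for 1 core subunit, and among GSI libraries for 0.

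The 30 accessory subunits had a median fold change of −0.37 in DMSO against T0, with 26 negative, and of −0.41 in GSI against T0, with 22 negative. In GSI against DMSO the median was 0.10, and 17 of 30 were positive. The 9 of the peripheral arm lay closest to all genes, with medians of −0.27 in DMSO against T0, −0.22 in GSI against T0 and −0.01 in GSI against DMSO. All 9 were negative in DMSO against T0, from −0.07 for NDUFA9 to −1.04 for NDUFA2. The 20 of the membrane arm had a median of −0.37 in DMSO against T0 with 16 negative, and held the accessory subunits furthest from 0 in both directions. The acyl carrier NDUFAB1, which also serves mitochondrial fatty acid and lipoic acid synthesis, had a fold change of −1.17 ± 1.59 in DMSO against T0 and −0.55 ± 2.82 in GSI against T0 (SD over 6 guides).

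Among the 9 accessory subunits of the peripheral arm only NDUFV3 and NDUFA9 had an unadjusted p under 0.05, both on the high side. NDUFV3, a small subunit at the NADH-oxidising tip, had 59.5, 76.7 and 60.05 normalized counts with GSI, 68.3, 49.95 and 77.5 with DMSO, and 48.5 and 101 at T0, and the groups overlapped. Its high-side p was 0.0381 in DMSO against T0 (adjusted p = 0.936) and 0.0302 in GSI against T0 (adjusted p = 0.916), although its median fold changes were −0.23 and −0.22. Among its guides 1 had 38, 167 and 63 counts in the GSI libraries, 29, 68 and 177 in the DMSO libraries and 0 in both T0 libraries. That guide passed the minimum mean count through day 14 alone, so it could not fall below T0. NDUFA9, which sits near the ubiquinone pocket, had 228, 219 and 173 normalized counts with GSI, 241, 144 and 149 with DMSO, and 149 and 196 at T0. Its fold change in GSI against T0 was 0.13 ± 3.07 (SD over 6 guides; exact RRA p = 0.0351 on the high side, adjusted p = 0.916), and the sign turned with library totals (−0.06) or with non-targeting controls (−0.10) as the scale.

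Membrane-arm subunits of the NDUFB series, which lie in the distal part of that arm, held the lowest p among subunits. NDUFB1 had 119, 132 and 164 normalized counts in GSI libraries, 108, 118 and 124 in DMSO libraries, and 224 and 228 in T0 libraries. Both day 14 groups lay below T0, where the libraries were close to each other, and they overlapped each other. Its fold change was −1.34 ± 1.18 in DMSO against T0 (SD over 5 guides; exact RRA p = 0.00747, adjusted p = 0.444), −0.89 ± 0.99 in GSI against T0 (exact RRA p = 0.0528, adjusted p = 0.881) and 0.41 ± 0.26 in GSI against DMSO, with 4 of 5 guides in the direction of the median in each. Without T0 replicate 2 the first of these values was −0.35.

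NDUFB2 had 50.3, 47.5 and 90.7 normalized counts with GSI, 43.3, 47.7 and 34.6 with DMSO, and 119 and 85.4 at T0. DMSO libraries lay below T0, whereas GSI replicate 3 lay above T0 replicate 2 and the GSI group overlapped both others. Its fold change was −1.54 ± 1.35 in DMSO against T0 (SD over 6 guides; exact RRA p = 0.00863, adjusted p = 0.475), −0.51 ± 1.48 in GSI against T0 and 0.60 ± 0.91 in GSI against DMSO (exact RRA p = 0.0153 on the high side, adjusted p = 0.948). Without T0 replicate 1 the first of these values was −0.86, and without GSI replicate 3 the last was 0.32.

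NDUFB8 had 40.9, 40.1 and 73.1 normalized counts with GSI, 54.1, 35.1 and 51.6 with DMSO, and 149 and 74.2 at T0. Its fold change was −1.66 ± 3.46 in DMSO against T0 (SD over 6 guides; exact RRA p = 0.0239, adjusted p = 0.645) and −1.09 ± 2.71 in GSI against T0. Against DMSO, GSI gave 0.32 ± 0.87 (exact RRA p = 0.343 on the low side, adjusted p = 0.989). Both day 14 groups lay below T0, but the size depended on the processing. Without T0 replicate 1 the value in DMSO against T0 was −0.35, and the mean over its guides was −0.10. NDUFB10 had 64.9, 73.1 and 54.3 normalized counts with GSI, 38.4, 33.2 and 55.1 with DMSO, and 160.5 and 109 at T0. Its libraries in both day 14 groups lay below T0, with fold changes of −1.41 ± 2.498 in DMSO against T0 (SD over 5 guides; exact RRA p = 0.0525, adjusted p = 0.814) and −0.56 ± 2.35 in GSI against T0 (exact RRA p = 0.0273, adjusted p = 0.784). Without T0 replicate 1 the value in GSI against T0 was 0.39.

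NDUFB7 had 92.7, 79.5 and 116 normalized counts with GSI, 108, 109 and 87.3 with DMSO, and 166 and 150.3 at T0. Both day 14 groups lay below T0, yet the fold change was only −0.15 ± 2.66 in DMSO against T0 and −0.40 ± 2.98 in GSI against T0 (SD over 6 guides; exact RRA p = 0.0276, adjusted p = 0.786), since 3 of 6 guides were positive in each. Without T0 replicate 2 the value in GSI against T0 was 1.51. NDUFB11, among the 3 genes with the lowest low-side p in GSI against DMSO, had 89.6, 134 and 136 normalized counts with GSI, 94.1, 114 and 139.9 with DMSO, and 130.2 and 135 at T0. Its fold change in that comparison was −0.17 ± 0.95 (SD over 6 guides; exact RRA p = 0.286, adjusted p = 0.989).

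NDUFA8 lay on the other side of T0. This subunit, on the side that faces the intermembrane space, had 80.1, 116 and 95.9 normalized counts with GSI, 62.3, 76.3 and 168 with DMSO, and 62.2 and 37.5 at T0. Both day 14 groups lay above T0, though DMSO replicate 1 exceeded T0 replicate 1 by little. NDUFA8 had a fold change of 1.84 ± 1.47 in DMSO against T0, with 0 of 6 guides negative (SD over 6 guides; exact RRA p = 0.0121 on the high side, adjusted p = 0.857), and 1.57 ± 1.51 in GSI against T0 (exact RRA p = 0.0234 on the high side, adjusted p = 0.891). Without T0 replicate 2 these values were 0.99 and 0.77. Several of its guides had few counts at T0. In T0 replicates 1 and 2 they were at 15 and 16, 22 and 2, 86 and 1, and 0 and 9. The remaining guides, at 191 and 153 and at 132 and 56, had fold changes of 0.07 and 0.74 in DMSO against T0. In GSI against DMSO its fold change was −0.27 ± 0.76, and its p of 0.273 was the lowest of all 47 genes on the low side (adjusted p = 0.989).

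**Figure D2:**
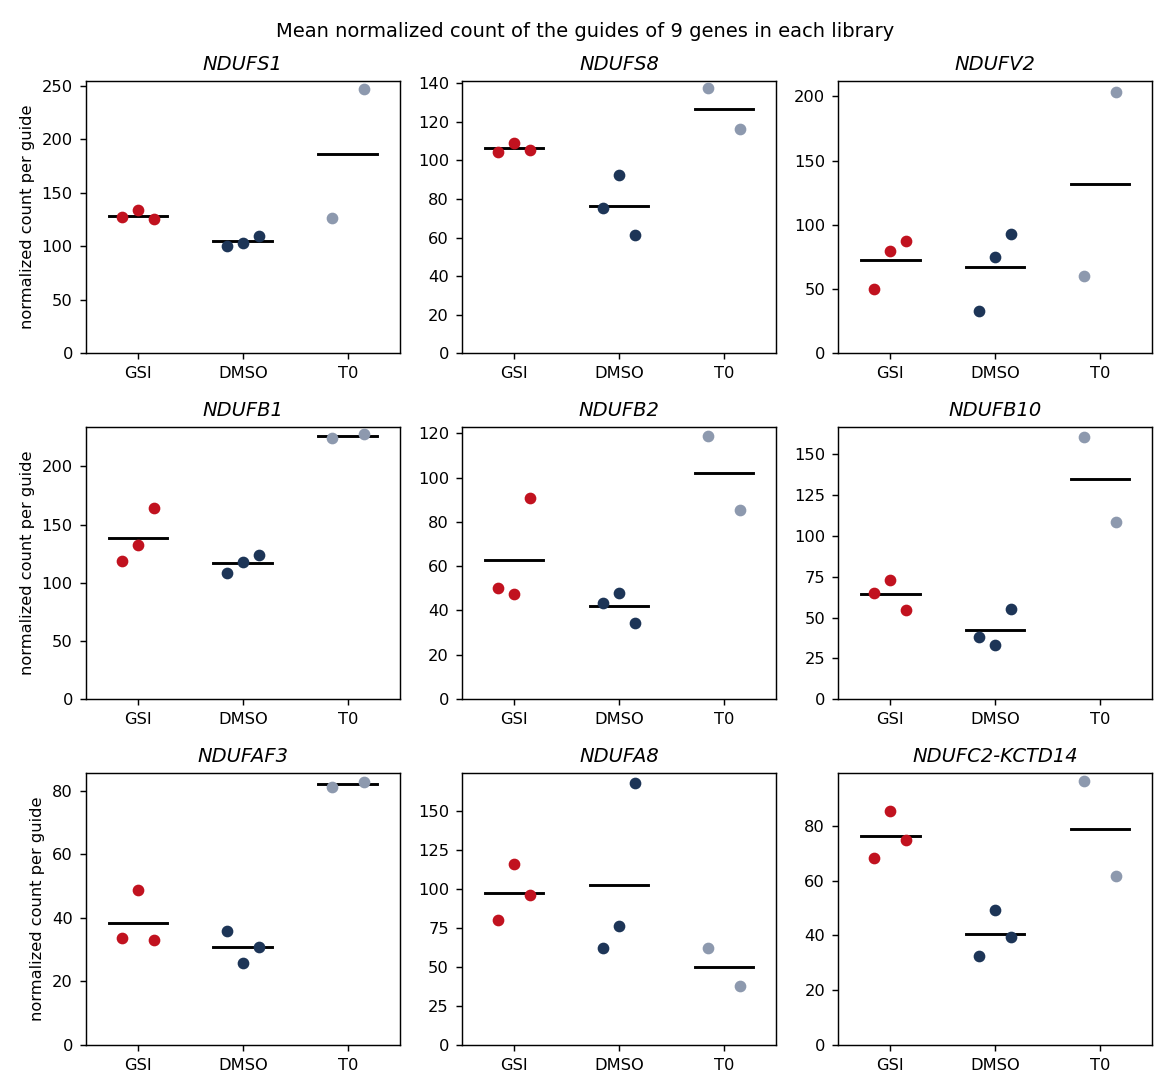
The y axes give the mean normalized count per guide of 9 NDUF genes in each library (points), for GSI (n = 3), DMSO (n = 3) and T0 (n = 2), with bars at the group means. The DMSO libraries of NDUFB1, NDUFB2, NDUFB10 and NDUFAF3 all lie below their T0 libraries, those of NDUFA8 lie above them, and the GSI libraries of NDUFC2-KCTD14 all lie above the DMSO libraries.

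Of the 7 NDUFAF assembly factors, 6 were negative in DMSO against T0, with a median of −0.38, and 4 in GSI against T0, with a median of −0.50. Without T0 replicate 1 these medians, taken relative to all genes, were 0.34 and 0.41. In GSI against DMSO the median was 0.15 and 5 of 7 were positive. NDUFAF3, which builds the ubiquinone-binding part together with NDUFAF4, had the lowest fold change of all NDUF genes. Its levels were 33.7, 48.9 and 32.9 normalized counts in GSI libraries, 35.8, 25.7 and 30.8 in DMSO libraries, and 81.2 and 82.9 in T0 libraries, so that both day 14 groups lay below T0 and overlapped each other. The ratio of mean levels was 0.469 in GSI against T0 and 0.375 in DMSO against T0. All 6 guides were negative in DMSO against T0, with a fold change of −2.34 ± 1.26 (SD over 6 guides; exact RRA p = 0.0167, adjusted p = 0.597), and all 6 in GSI against T0, with a fold change of −1.17 ± 0.80 (exact RRA p = 0.0605, adjusted p = 0.896). Against DMSO, GSI gave 0.73 ± 1.30, with 4 of 6 guides positive. Across all alternatives its value in DMSO against T0 lay between −3.82 and −1.42.

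NDUFAF1, a factor for the membrane arm, had 77.2, 83.8 and 98.0 normalized counts with GSI, 68.1, 72.2 and 70.1 with DMSO, and 92.7 and 116 at T0. DMSO lay below both other groups, with a fold change of −1.17 ± 1.52 in DMSO against T0 (SD over 6 guides; exact RRA p = 0.0667, adjusted p = 0.857). NDUFAF7, a mitochondrial methyltransferase, and NDUFAF5, which hydroxylates NDUFS7, lay below T0 in all day 14 libraries, with fold changes in DMSO against T0 of −0.95 ± 0.90 and −0.29 ± 2.44 (SD over 6 and 5 guides). NDUFAF2, a late factor that helps to attach the NADH-oxidising tip, had 46.9, 32.2 and 48.9 normalized counts with GSI, 48.4, 51.8 and 29.6 with DMSO, and 32.9 and 34.8 at T0. Its groups overlapped, and its fold change in GSI against T0 was 0.47 ± 3.59 (SD over 6 guides; exact RRA p = 0.00914 on the high side, adjusted p = 0.849), with 3 of 6 guides positive. Of these guides 1 had 0 counts in both T0 libraries and passed the minimum mean count through day 14 alone, so it could not fall below T0. Without T0 replicate 2 the fold change in GSI against T0 was −0.19.

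The 3 genes that carry the name without being complex I subunits had a median of 0.42 in DMSO against T0. NDUFA4, now assigned to complex IV, had 187, 209 and 170.2 normalized counts with GSI, 239, 222 and 206 with DMSO, and 165 and 184 at T0. The DMSO libraries lay above T0, with a fold change of 0.42 ± 0.81 (SD over 6 guides; exact RRA p = 0.0785 on the high side, adjusted p = 0.947). NDUFA4L2, its hypoxia-induced relative, had a fold change of 0.56 ± 2.33 in DMSO against T0 (SD over 4 guides).

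NDUFC2-KCTD14 is a readthrough transcript that joins NDUFC2 with its neighbour KCTD14. It had 68.4, 85.2 and 74.9 normalized counts in GSI libraries, 32.6, 49.2 and 39.3 in DMSO libraries, and 96.2 and 61.7 in T0 libraries. DMSO lay below both other groups. Its fold change in GSI against DMSO was 1.58 ± 1.30 with 4 of 4 guides positive (SD over 4 guides; exact RRA p = 0.00959 on the high side, adjusted p = 0.878), the largest of all 47 genes, and between 0.91 and 1.78 across all alternatives. In DMSO against T0 it was −1.88 ± 2.18. The guides assigned to NDUFC2 gave 0.09 and those assigned to KCTD14 gave −0.51 in GSI against DMSO, and 0.05 and −0.05 in DMSO against T0. Of the 4 readthrough guides, 1 had 47, 110 and 28 counts in the GSI libraries, 10, 0 and 12 in the DMSO libraries, and 246 and 1 in the T0 libraries.

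With the inhibitor, complex I guides also lay below T0 on the median. In GSI against T0, 33 of 47 NDUF genes were negative (70.2%, against 50% of all genes), with a median of −0.42, and 2 had a fold change under −1 (4.26%, against 3.32%). No NDUF gene was called on either side, where 0% of all genes were called, while the unadjusted p was under 0.05 on the low side for 2 (4.26%, against 5.71%) and on the high side for 4 (8.51%, against 5.38%). GSI libraries lay entirely below T0 for 17 genes (36.2%, against 19.2%) and above for 2 (4.26%, against 11.4%). The comparisons with T0 share the T0 libraries, so the second is no independent repeat of the first. Likewise DMSO against T0 and GSI against DMSO share the DMSO libraries, where a low DMSO value lowers the first and raises the second.

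The direct comparison of GSI with DMSO, which the screen was made for, called no NDUF gene, as it called 0% of all genes on either side. Fold changes were positive for 29 of 47 genes and negative for 18, or 38.3%, against 53.1% of all genes. The median was 0.11, against −0.02 over all genes. This lean was not particular to complex I. In the other respiratory complexes, II to V, 23 of 38 genes were positive (39.5% negative), with a median of 0.06. Among cytosolic ribosome genes 58 of 84 were positive (31% negative), with a median of 0.17. Olfactory receptor genes were 54.1% negative, with a median of −0.02. At an unadjusted p under 0.05, 0 NDUF genes were lower (5.02% of all genes were) and 2 were higher, NDUFC2-KCTD14 and NDUFB2 (4.26%, against 5.01%). Of the NDUF genes 0 had a fold change under −0.5 or −1 (3.88% and 0.0539% of all genes had). The GSI libraries lay entirely above the DMSO libraries for 5 genes, or 10.6%, against 3.7% of all genes. These were NDUFS1, NDUFS8, NDUFA3, NDUFAF1 and NDUFC2-KCTD14, and for 0 genes did they lie entirely below, against 5.86%. NDUFA3, of the proximal membrane arm, had 128, 136 and 131 normalized counts with GSI, 116, 88.3 and 108 with DMSO, and 154 and 125 at T0.

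Levels of whole classes can also be set side by side per library. The level of a class was the median over its genes of log2(normalized count + 1), from which the T0 mean and then the median over all genes were subtracted. For all 47 NDUF genes it was −0.24, −0.18 and −0.09 in GSI replicates 1 to 3, −0.28, −0.40 and −0.36 in DMSO replicates 1 to 3, and 0.01 and −0.01 in the T0 libraries. The 3 groups did not overlap. The T0 values mirror each other around 0 by construction, since the T0 mean of each gene was subtracted. Opposite deviations of single genes cancel in the median, so the small T0 distance does not show that the aliquots were alike. In 7 of 47 NDUF genes they were more than 2-fold apart. Core subunits averaged −0.26 ± 0.05 in GSI and −0.56 ± 0.17 in DMSO (SD, n = 3 each), but their T0 libraries were at 0.33 and −0.33, further apart than GSI and DMSO.

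Accessory subunits averaged −0.16 ± 0.08 in GSI and −0.31 ± 0.05 in DMSO, and assembly factors −0.24 ± 0.14 in GSI and −0.53 ± 0.05 in DMSO (SD, n = 3 each). For accessory subunits every GSI library lay between the DMSO and the T0 libraries, with T0 at −0.04 and 0.04. This did not hold for either arm alone. In the membrane arm GSI replicate 1, at −0.32, lay below DMSO replicate 1, at −0.27, and in the peripheral arm the GSI libraries (−0.16, −0.14 and −0.08) overlapped both DMSO replicate 3, at −0.09, and T0 replicate 1, at −0.12. For assembly factors every GSI library lay above the DMSO libraries, but GSI replicate 3, at −0.09, was level with T0 replicate 2, at −0.11. The other respiratory complexes, II to V, averaged −0.27 ± 0.11 in GSI and −0.30 ± 0.16 in DMSO, where both groups overlapped. Cytosolic ribosome genes, which every dividing cell needs, averaged −0.46 ± 0.04 in GSI and −0.65 ± 0.18 in DMSO, and olfactory receptor genes, which these cells should not need, 0.10 ± 0.06 in each.

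**Figure D3:**
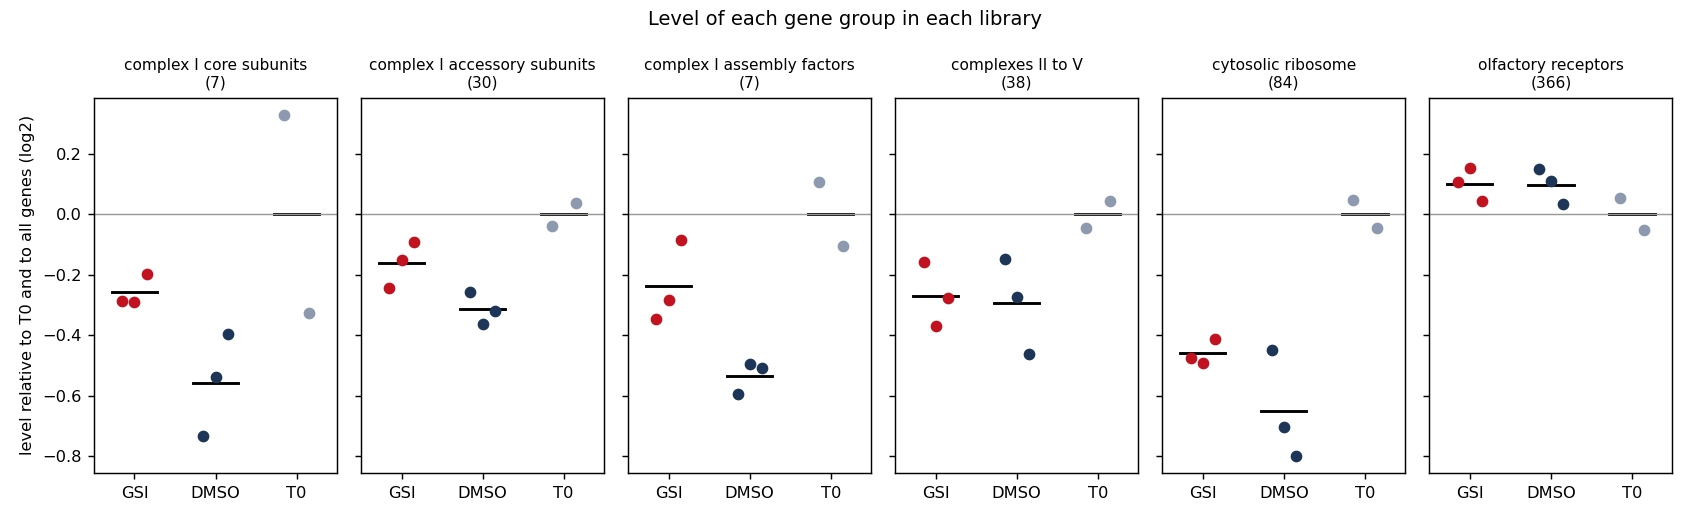
The y axis gives the level of a class of genes in each library (points), as the median log2 normalized count relative to the T0 mean and to all genes, for GSI (n = 3), DMSO (n = 3) and T0 (n = 2), with bars at the group means. In accessory subunits of complex I the GSI libraries lie between the DMSO and T0 libraries. In complexes II to V GSI and DMSO overlap, although 23 of 38 genes had a positive fold change in GSI against DMSO. The T0 libraries of the core subunits lie 0.33 above and below their mean, and the T0 pair of every class mirrors around 0 by construction.

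Other genes of the pathway gave a mixed picture, with 0 genes called in any list and comparison except for 1 ribosomal gene in DMSO against T0. A list of 17 library symbols of complex I assembly factors without an NDUF name had medians of −0.19 in DMSO against T0, −0.03 in GSI against T0 and 0.04 in GSI against DMSO. In this list C9orf123 and TMEM261 are older symbols of the same gene, DMAC1, and C17orf89 is an older symbol of NDUFAF8, which the choice by name therefore missed. AIFM1, a mitochondrial flavoprotein that works with the import factor CHCHD4, had the lowest p among them in DMSO against T0, with a fold change of −1.05 ± 1.66 (SD over 6 guides; exact RRA p = 0.0138, adjusted p = 0.557). Complex III (9 genes) had medians of −0.60, −0.38 and 0.12 in DMSO against T0, GSI against T0 and GSI against DMSO, complex IV (10 genes) −0.07, −0.19 and 0.05, complex V (15 genes) −0.22, −0.25 and −0.03, and complex II (4 genes) −0.31, 0.13 and 0.24.

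Single genes of the later complexes had lower p-values than any NDUF gene. COX4I1, a subunit of complex IV, had a fold change of −1.75 ± 1.98 in DMSO against T0 (SD over 6 guides; exact RRA p = 0.000275, adjusted p = 0.14), and ATP5A1, a subunit of the catalytic head of the ATP synthase, −1.49 ± 1.76 (SD over 6 guides; exact RRA p = 0.000243, adjusted p = 0.14). In complex III the lowest p was that of CYC1, cytochrome c1, at −1.12 ± 1.58 (exact RRA p = 0.0331), and in complex II that of SDHB, an iron-sulphur subunit, at −0.89 ± 0.98 (exact RRA p = 0.178). Of 38 genes of complexes II to V, 8 were lower at an unadjusted p under 0.05 in DMSO against T0 and 0 higher, where 6.19% and 5.28% of all genes were. The 12 genes of NADH shuttles and redox enzymes, which offer other routes for NADH, had medians of 0.07 in DMSO against T0 and −0.02 in GSI against T0, with NNT, the mitochondrial transhydrogenase, at −1.12 ± 2.002 in DMSO against T0 (SD over 6 guides; exact RRA p = 0.00308, adjusted p = 0.332). The cytosolic ribosome (84 genes) had a median of −1.03 in DMSO against T0.

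Guides of the same gene differed widely. Of 271 tested NDUF guides, 178 (65.7%, against 50.1% of all guides) were negative in DMSO against T0, 164 (60.5%, against 50.2%) in GSI against T0 and 114 (42.1%, against 51.6%) in GSI against DMSO. Only 10 (3.69%, against 3.59%) were lower in DMSO than at T0 at an unadjusted p under 0.05, and 9 (3.32%, against 4.2%) were higher. In GSI against T0, 15 (5.54%, against 3.9%) were lower and 13 (4.8%, against 4.82%) higher, and in GSI against DMSO 0 were lower (against 1.5%) and 4 (1.48%, against 1.53%) higher. The guides of each gene come from 2 sub-libraries, A and B. The medians in A and in B were both negative for 28 of 47 genes in DMSO against T0 (59.6%, against 26.1% of all genes) and for 22 in GSI against T0 (46.8%, against 26.3%), among them 6 and 5 of the 7 core subunits. In GSI against DMSO both medians were positive for 16 genes (34%, against 22.6%).

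A count of 0 in 1 of the T0 libraries was found for 31 NDUF guides (11.4%, against 11.6% of all guides), and in both T0 libraries for 4, namely 1 each of NDUFS3, NDUFS8, NDUFV3 and NDUFAF2. All 4 were counted at day 14, and the size of their fitted fold changes depends on the prior count of the fit. The minimum mean count was taken over all 8 libraries, so such guides were kept only through their day 14 counts. Their direction against T0 was fixed in advance.

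**Figure D4:**
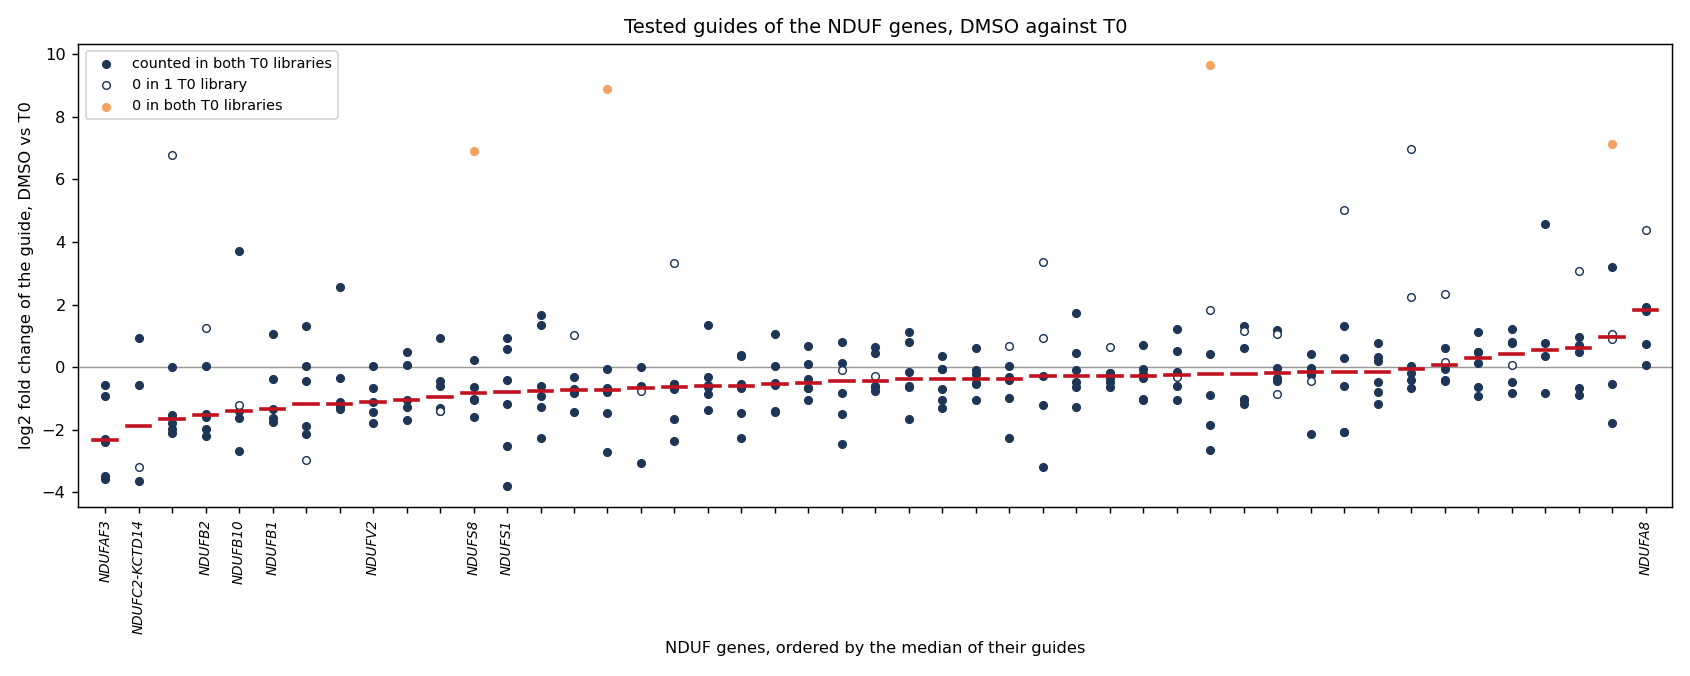
The y axis gives the log2 fold change in DMSO against T0 of the 271 tested guides of the 47 NDUF genes (points), with red bars at the gene medians, genes ordered by them along the x axis and the names of 9 genes given. Open points had a count of 0 in 1 T0 library (31 guides) and orange points in both (4 guides), where the plotted size depends on the prior count of the fit.

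The 47 genes lie on 21 chromosomes with at most 6 on any of them. NDUFAF3 lies on chromosome 3 at 49020459 to 49023495, NDUFB1 on chromosome 14 at 92116122 to 92121917 and NDUFB2 on chromosome 7 at 140690777 to 140722790 (GRCh38, whole gene). Some NDUF genes overlap another gene in the annotation. NDUFS3 overlaps PTPMT1, a mitochondrial phosphatase of cardiolipin synthesis whose own guides had a fold change of −2.65 in DMSO against T0, and NDUFA7 overlaps the ribosomal gene RPS28, at −0.93. Other overlapping genes lay near or above 0, such as TFPT (with NDUFA3) at 0.01, RBM10 (with NDUFB11) at 0.70 and TATDN1 (with NDUFB9) at 0.93. All these are examples picked from a longer list, outside the rule for named genes. In addition 21 of the 47 genes have annotated pseudogenes with their name, 63 in all. Which guides also match such a copy or cut in shared bases was not tested, since guide sequences were not used here.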

How the data were processed

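Guide counts in genomic DNA of 8 libraries were analysed (3 GSI, 3 DMSO, 2 T0). The authors used bcl2fastq 2.19 for demultiplexing, FastQC 0.11.5 for quality control and MAGeCK 0.5.9.2 to count reads per guide. The deposited counts were used, and the deposited normalized table was not used. Counts were scaled by median-ratio size factors, guides with a mean count under 10 were left out, and each fit held the 2 groups compared (R 4.3.3, edgeR 4.0.16, quasi-likelihood F test). One-sided guide p-values were ranked over all guides and aggregated per gene by RRA (alpha 0.25, at least 4 guides, exact null distribution), with Benjamini-Hochberg adjustment over all genes, each side apart. A gene's level is the mean normalized count of its guides. Values are given for core subunits, for members with an unadjusted RRA p under 0.05 on a side of a comparison or among the 3 lowest there, and for the gene with the lowest low-side p of each pathway list in DMSO against T0. NDUFAB1, NDUFA2, NDUFA3, NDUFA4L2, NDUFAF1, NDUFAF5 and NDUFAF7 were added after their values were seen. The values of 1 gene that this rule selects are not reported here. Members and lists were chosen with earlier results of these data known. The steps were tested on simulated data.

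All cultures came from 1 transduced pool and the T0 samples are aliquots of it. The guide p-values set a difference against the spread between these cultures and aliquots. A gene's RRA p compares the ranks of its guides with random ranks, so it measures agreement among guides and not that spread. Culture spread enters it only through the order of the guides. Reads carry no molecular identifiers, so depth covers counting error only. Alternatives were other scalings and count minimums, DESeq2 1.42.0, counts summed per gene, a joint fit, the mean over guides, a replicate block and leaving out each library. Positions are those of GENCODE release 44 (GRCh38), matched by symbol. The build used to design the guides was not given in the sources used here.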

Additional observations from a re-analysis of the deposited data

How the results depend on the processing

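No alternative called an NDUF gene on either side of any comparison, DESeq2, summed counts and the replicate block included. Values below are medians relative to all genes. In DMSO against T0 (−0.45 for all NDUF genes, −0.74 core, −0.37 accessory, −0.38 assembly), a mean count of at least 50 gave −0.38 for all and −0.67 for assembly, summed counts −0.34, −0.30 (accessory) and −0.54 (assembly), and the mean over guides −0.56 (core) and −0.51 (assembly). In GSI against T0 (−0.42, −0.52, −0.41 and −0.50), a mean count of at least 50 gave −0.31 for all and −0.22 for accessory, summed counts −0.16, −0.36 (core), −0.12 (accessory) and −0.20 (assembly), and the mean over guides −0.29, −0.46 (core) and −0.34 (assembly). In GSI against DMSO the core median of 0.26 was 0.35 with library totals, 0.10 without a count minimum and 0.078 with the mean over guides. Leaving out each library gave, in DMSO against T0, −0.56 to −0.36 (all), −0.65 to −0.59 (core), −0.53 to −0.36 (accessory) and −0.69 to 0.34 (assembly), in GSI against T0 −0.38 to −0.14, −0.71 to −0.27, −0.42 to −0.12 and −0.49 to 0.41, and in GSI against DMSO 0.041 to 0.25, 0.084 to 0.34, 0.028 to 0.27 and 0.043 to 0.24. The assembly median was above 0 only without T0 replicate 1. Signs of single genes turned for NDUFV3 (mean over guides, 1.09 in DMSO against T0 and 1.17 in GSI against T0), NDUFA9 in GSI against T0 (−0.055 with library totals and −0.10 with non-targeting controls) and NDUFB7 in GSI against T0 (0.55, mean over guides). They also turned when a library was left out, for NDUFV3 (−0.85 to 0.32 in DMSO against T0, −0.34 to 0.38 in GSI against T0), and in GSI against T0 for NDUFB10 (−1.38 to 0.39), NDUFB7 (−0.97 to 1.51) and NDUFAF2 (−0.19 to 4.98). Sizes moved by over 1.5 times with the mean over guides for NDUFB1 (−0.81), NDUFB2 (−0.99) and NDUFB8 (−0.10) in DMSO against T0 and for NDUFAF2 (1.65) and NDUFB10 (−0.19) in GSI against T0. They also did with summed counts for NDUFAF3 (−1.42) in DMSO against T0, for NDUFA8 (1.03 in DMSO against T0, 0.98 in GSI against T0), for NDUFB10 (−1.05) and NDUFB7 (−0.70) in GSI against T0 and for NDUFC2-KCTD14 (0.91) in GSI against DMSO. Other count minimums or scalings did so for NDUFB1 (−0.86) in DMSO against T0, for NDUFB7 (−0.64 and −1.41), NDUFB10 (−0.87) and NDUFAF2 (0.21) in GSI against T0 and for NDUFB2 (0.39 and 1.005) in GSI against DMSO. The cause was not tested. Scaling by non-targeting controls moved the median of all genes by −0.26 in DMSO against T0 and −0.24 in GSI against T0. The T0 libraries, at 17.7 and 15.2 M reads, were not the shallowest, and whether depth limits the comparisons with T0 was not tested.

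GSI and DMSO cultures of the same number deviated together with correlations of 0.28, 0.0644 and 0.121. Those of different number gave −0.16 to 0.045. The main fits did not use the number, and whether cultures of the same number were handled together was not tested. With the replicate block the medians were −0.55 (all), −0.55 (accessory) and −0.30 (assembly) in DMSO against T0, −0.34 (all) and −0.24 (assembly) in GSI against T0, and 0.20 (all), 0.33 (core) and 0.31 (assembly) in GSI against DMSO, and NDUFV3 had 0.25 in GSI against T0. In the comparisons with T0 the block matched aliquots to cultures by number alone, and replicate 3 had no T0 library. Aliquots and cultures of the same number had correlations of −0.012 to 0.025.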
